A study of Mus musculus with 4 samples.

Results

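Txnip, 3 further arrestin-domain genes (Arrdc1, Arrdc3 and Arrdc4) and 3 thioredoxin-system genes (Txn1, Txn2 and Txnrd1) were followed through the malignant and host cells of mouse sarcomas. They are 7 of 18220 genes in the deposited expression tables, and all 7 are present in both the malignant table (17992 genes) and the non-malignant table (16349 genes). The group was chosen on Txnip, whose level in the host cells named Osteoclasts separated the digoxin mice from the vehicle mice. The digoxin comparison within Osteoclasts is therefore described with no test, and tests are given in the other cell populations. The tumors came from an allograft sarcoma model in the hind limb, with the genotype KrasLSL-G12D/+;Trp53flox/flox on the background strain 129/SvJae; the driver of recombination and the age and sex of the hosts are not given in the sources used here. One group of 2 mice was given vehicle (PBS) by intraperitoneal injection. The other group of 2 mice was given digoxin, a cardiac glycoside that blocks the sodium pump, at 2 mg/kg, dissolved in DMSO and diluted in PBS. DMSO is named for the digoxin group alone. If the vehicle lacked it, effects of digoxin and of DMSO cannot be told apart in the comparisons below. Injections were 24 h apart and tumors were taken after 4 doses, dissociated with collagenase, dispase and trypsin at 37 °C, and run on a droplet platform with 3′ chemistry that counts unique molecular identifiers (UMIs). All levels below are mean CPM, the UMIs of a gene relative to all UMIs of a cell on the usual CPM scale, averaged over the cells of a population in a mouse. Values of single mice are given in the order vehicle replicate 1, vehicle replicate 2, digoxin replicate 1 and digoxin replicate 2.

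Thioredoxins are small proteins that reduce disulfide bonds in other proteins: Txn1 encodes the form of the cytosol and nucleus, Txn2 the mitochondrial form. Txnrd1 encodes the cytosolic selenoenzyme that recharges thioredoxin with electrons from NADPH, and it is a textbook target of the oxidative stress factor NRF2. Txnip binds reduced thioredoxin and blocks it. Txnip is also an alpha-arrestin, a family of adaptors that bring membrane proteins to ubiquitin ligases, and it lowers glucose uptake by driving internalisation of the glucose transporter GLUT1. Its gene is switched on by glucose-derived metabolites through the factors MondoA (Mlxip) and ChREBP (Mlxipl) with their partner Mlx. Arrdc4 is a close relative of Txnip and is known as a target of the same factors. Arrdc3 is an adaptor for the beta-2 adrenergic receptor and integrins, and Arrdc1 recruits the ESCRT protein Tsg101 to the plasma membrane during vesicle release.

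The promoters of Txnip and Arrdc4 are shown because both genes are known to respond to glucose through E-box elements, and because Txnip carries the Osteoclast difference described below. Sequences are from RefSeq on GRCm38.p6, and a promoter window ran from 250 bases before to 50 bases after the start of transcription. All 7 genes had an entry, with 11 windows in total. The Txnip stretch lies at chr3:96557812-96557931 on the plus strand, 145 to 26 bases before the start. The Arrdc4 stretch lies at chr7:68749369-68749488 on the minus strand, 250 to 131 bases before the start. Capitals mark matches to the motifs that were searched.
Txnip: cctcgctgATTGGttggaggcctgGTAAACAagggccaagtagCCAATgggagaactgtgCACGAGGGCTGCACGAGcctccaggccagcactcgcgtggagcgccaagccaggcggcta
Arrdc4: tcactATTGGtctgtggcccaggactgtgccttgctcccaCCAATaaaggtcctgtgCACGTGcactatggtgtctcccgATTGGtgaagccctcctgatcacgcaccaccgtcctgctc

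Each motif was searched on both strands of 32851 mouse promoter windows. A pair of E-box-like sites 5 bases apart, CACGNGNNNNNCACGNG, was found in 16 windows (0.0487%), and Txnip was the only member with it, at 85 to 69 bases before the start. The full E-box CACGTG, which either site of that pair can also match, was found in 7.15% of windows and in Arrdc4 alone among the members, 193 to 188 bases before the start. The forkhead motif GTAAACA was found in 3.65% of windows and, among the members, in Txnip, 121 to 115 bases before the start. CCAAT boxes, printed as CCAAT or, on the other strand, ATTGG, were found in 37.4% of windows and in those of Arrdc3, Arrdc4, Txn2, Txnip and Txnrd1. The core of the antioxidant response element, TGACNNNGC, was found in 12.4% of windows and in those of Arrdc4 and Txnrd1. These matches describe the letters in the windows only.

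In the gene annotation (GENCODE, GRCm38) Txnip spans chr3:96557957-96561883 on the plus strand and overlaps Gm15441 on the other strand. Arrdc1 spans chr2:24925352-24935252, Arrdc4 chr7:68736995-68749241, Txn1 chr4:57943373-57956411 and Txn2 chr15:77915047-77929006, each on the minus strand. Arrdc3 spans chr13:80883384-80896042 on the plus strand and overlaps 1700023H06Rik on the other strand. Txnrd1 spans chr10:82833951-82897712 on the plus strand and overlaps Eid3 on the same strand and Gm38560 and Gm47073 on the other. Whether counting used the strand is not given in the sources used here, so values of Txnip, Arrdc3 and Txnrd1 are uncertain where reads could belong to these neighbours, and Txn1 has a processed pseudogene of near-identical sequence.

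The tables held 18963 malignant and 12648 non-malignant cells. Median depth per mouse lay between 46799 and 57658 UMIs per malignant cell, and Osteoclasts numbered 28, 152, 47 and 36 cells. Among host cells Xist was at 722, 6.09, 817 and 788 CPM and Ddx3y, a Y-linked gene, at 1.77, 86.0, 1.72 and 2.14 CPM. The host labelled vehicle replicate 2 thus stood apart from the other 3, while the malignant cells of all 4 mice carried Ddx3y (43.1 to 49.3 CPM). The vehicle hosts therefore differed from each other in these sex-linked genes, and the digoxin hosts were alike. The part of this in the comparisons below was not tested. Xist in malignant cells was at 16.4, 0.462, 16.9 and 15.3 CPM, again lowest in vehicle replicate 2. Macrophage markers summed to 217 to 298 CPM in malignant cells. The part of host RNA in the malignant values, low ones such as Arrdc4 included, was not tested. Of 38 log2 differences between digoxin and vehicle that were followed through the alternatives, 24 moved by over 1.5 times without vehicle replicate 2. Values without that mouse are given beside many of them. Trp53, the gene with conditional alleles, was at 6.56 to 7.71 CPM in malignant cells and at 63.8 to 75.5 CPM in non-malignant cells. From 14 to 25 cell barcodes were shared between any pair of libraries, and 0 cell names were shared between both tables.

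Deposited cell names were kept, and their defining markers were checked. Osteoclasts carried 7 to 9 of 9 osteoclast markers at 20 CPM or more in each mouse. Among them were Acp5, the tartrate-resistant phosphatase, at a mean of 11381 CPM, and Ctsk, the collagen-degrading cathepsin K, at 9188 CPM. The 9 markers summed to 23694 to 39054 CPM. Malignant cells also carried UMIs of all 9, at a sum of 113 to 179 CPM. The cells named Epithelial went against their name: Epcam was at 0 to 0.358 CPM and Cdh1 at 0 to 1.24 CPM, whereas the endothelial genes Cdh5 and Pecam1 averaged 888 and 841 CPM. The same cells carried mast cell genes in the digoxin mice, with a summed level of 5 markers of 59.4, 260, 4709 and 5304 CPM. The cells named Microglia went against their name as well. Tmem119 was at 0 to 2.75 CPM, and the microglia markers Tmem119, P2ry12 and Cx3cr1 summed to 21.4 to 47.1 CPM. Siglech, known from plasmacytoid dendritic cells and microglia, averaged 2449 CPM and Ccr9 averaged 591 CPM. The 4 plasmacytoid dendritic cell markers (Siglech, Bst2, Ccr9 and Tcf4) each exceeded 20 CPM in every mouse and summed to 7704 to 8623 CPM. Epithelial and Microglia are used below as deposited labels only.

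In Osteoclasts, the multinucleate bone-resorbing relatives of macrophages, Txnip was at 183, 142, 43.8 and 41.1 CPM. Both vehicle mice lay far above both digoxin mice, and the digoxin mice nearly coincided. The group means were 162 CPM (SD 28.8, n = 2) with vehicle and 42.4 CPM (SD 1.90, n = 2) with digoxin, a 3.83-fold lower level and a difference of -1.90 in log2(mean CPM + 1). These values rest on 154, 489, 68 and 52 Txnip UMIs. The median Osteoclast was at 109, 54.0, 34.9 and 11.5 CPM, the same order of groups as the mean. Cells without a Txnip UMI numbered 7, 48, 17 and 18, so these medians rest on few UMIs per cell and depend on depth. The single cell with the most Txnip UMIs held between 6.34% and 17.3% of a mouse's total, and without that cell the means were 153, 134, 40.1 and 36.0 CPM. Without vehicle replicate 2, which supplied 152 of the cells, the log2 difference was -2.08. Of the 7803 genes fitted in this population, limma called 0.0128%, and nothing is read from that share, since the members were chosen on this comparison.

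Other properties of the Osteoclasts separated the groups as well. Median mitochondrial UMIs were 9.48%, 10.8%, 7.86% and 7.64% per cell, and median depth was 24700.5, 22907, 28744 and 27543.5 UMIs. The mitochondrial share was not lower here alone: malignant cells were at 5.80%, 5.93%, 5.58% and 5.19%. It was also lower in both digoxin mice in all non-malignant cells, and overlapped in T cells, NK cells and Microglia. In Osteoclasts the summed level of the 9 osteoclast markers was 27780, 39054, 23694 and 26362 CPM, lower in both digoxin mice. Markers of macrophages, the nearest relatives, summed to 1725, 2199, 2049 and 1714 CPM with no separation of groups. T, NK and B cell markers were close to 0, with sums of at most 5.20, 10.3 and 2.22 CPM. The part of mitochondrial share, depth and marker level in the Txnip difference was not tested. Without cells over 20% mitochondrial UMIs the log2 difference was -1.87, and without cells marked as doublets it was -1.91.

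The other members had other values in Osteoclasts, and 3 of them lay on the opposite side. Txnrd1 was at 121, 122, 150 and 222 CPM, higher in both digoxin mice, with a log2 difference of 0.58. Txn2 was at 230, 219, 279 and 279 CPM, also higher in both digoxin mice (0.31). Arrdc1 was at 16.2, 16.7, 20.6 and 26.3 CPM, again higher in both (0.48). For Arrdc4, the relative of Txnip, the mice overlapped at 40.6, 54.0, 52.5 and 54.1 CPM. Txn1 overlapped too, at 1675, 1472, 1588 and 1768 CPM. Arrdc3 was low, at 6.07, 5.31, 4.03 and 1.77 CPM on 19 UMIs at most, and did not enter the fit. Among all genes fitted, 37.4% had groups that did not overlap. The count was 4 of the 6 members fitted, which includes Txnip, chosen for this, and 3 of the other 5.

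**Figure D1:**
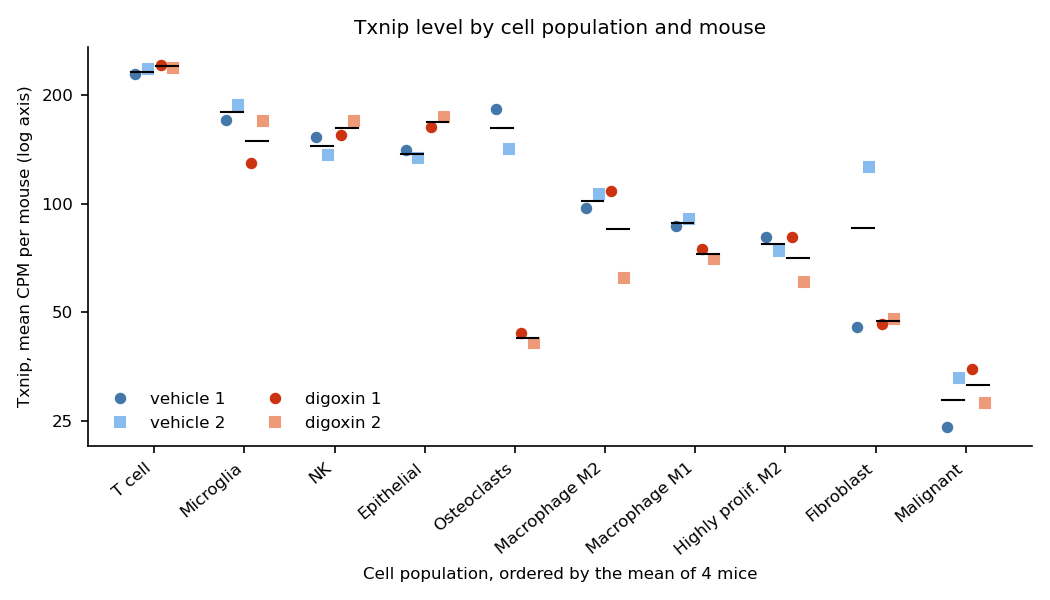
Txnip level in each mouse and each population with at least 20 cells in every mouse, in mean CPM on a log axis; circles are replicate 1 and squares replicate 2, blue for vehicle and red for digoxin, and black lines are group means of 2 mice. In Osteoclasts the vehicle mice (183 and 142 CPM) lie far above the digoxin mice (43.8 and 41.1 CPM), and malignant cells are lowest of those shown at 24.0 to 34.7 CPM.

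Among the populations with at least 20 cells in every mouse, Txnip was highest in T cells and lowest in malignant cells. T cells held 229, 235, 242 and 238 CPM, and no other of these populations reached this range. Microglia (130 to 188 CPM), NK cells (137 to 169 CPM) and Epithelial cells (134 to 174 CPM) followed with overlapping ranges. The macrophage sub-clusters named M2, M1 and Highly proliferative M2 averaged 93.5, 80.6 and 74.0 CPM and also overlapped. Fibroblasts were at 45.6, 126, 46.4 and 48.0 CPM, where vehicle replicate 2 alone was high. That mouse gave 31 Fibroblast cells with a median of 18866 UMIs, and its proliferation markers (Mki67, Top2a, Pcna, Mcm5 and Cdk1) summed to 59.3 CPM in them against 440, 359 and 257 CPM in the other mice. The part of these in the Txnip value was not tested. Malignant cells were at 24.0, 33.0, 34.7 and 28.0 CPM, below every other population in this order. Of the 9 pairs of neighbours in this order, 2 did not overlap: T cells over Microglia, and Fibroblasts over malignant cells.

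In the scarce types Txnip rested on few UMIs. B cells had 295, 535, 48.9 and 197 CPM, from 44, 17, 10 and 40 UMIs. Neutrophils had 191, 197, 129 and 154 CPM, from 25, 7, 72 and 42 UMIs. Dendritic cells were low, at 24.0, 15.7, 39.9 and 45.7 CPM. The cells named Unknown, found in vehicle replicate 2 alone, had 13.7 CPM. As few as 4 B cells, 5 Neutrophils and 10 Dendritic cells were present in a mouse, and these types were not tested.

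By the correlation of log2 levels over 10 populations, Arrdc1 was the member most like Txnip, with a Pearson r of 0.80. The value was 0.28 for Arrdc4, 0.05 for Arrdc3, and -0.29, -0.28 and -0.36 for Txn1, Txn2 and Txnrd1. Among 9281 genes compared, the 5 most like Txnip were Nop53 (0.96), Vti1a (0.95), Arhgef1 (0.94), Syf2 (0.94) and Gm35082 (0.94). The populations share libraries, and malignant and host cells differ in depth, so these values are a description.

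Among the populations with at least 20 cells in every mouse, the arrestin-domain relatives each had a different leading population. Arrdc4 was highest in macrophages: M1 macrophages held 116, 83.5, 139 and 114 CPM, M2 macrophages 77.7, 59.1, 88.8 and 57.1 CPM, and Highly proliferative M2 macrophages 57.6, 44.2, 56.0 and 52.0 CPM. Malignant cells held 4.35, 4.12, 4.42 and 4.36 CPM, a low level that hardly varied among mice. The average over 4 mice was 26.3-fold higher in M1 macrophages than in malignant cells, the widest spread over populations of any member. Within each mouse, Arrdc4 was 15.7-fold to 24.7-fold higher in macrophages than in malignant cells. In the scarce Neutrophils Arrdc4 was at 63.9, 158, 112 and 84.8 CPM, a range that overlapped M1 macrophages. Lymphoid levels were lower, at 21.3 to 39.4 CPM in T cells and 17.6 to 21.3 CPM in NK cells.

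Arrdc3 was highest in the endothelial-marked cells named Epithelial, at 51.7, 64.2, 47.0 and 42.0 CPM, and this range lay above those of the other populations with at least 20 cells in every mouse. In the scarce Neutrophils it was at 25.5, 79.5, 36.9 and 15.5 CPM. M1 and M2 macrophages (22.2 to 33.3 CPM) and Fibroblasts (16.1 to 34.5 CPM) followed, and malignant cells held 8.53 to 15.6 CPM. Osteoclasts were lowest, with all 4 mice below every NK library. Among the same populations Arrdc1 was highest in T cells (34.7 to 54.6 CPM), NK cells (36.5 to 41.4 CPM) and Microglia (29.4 to 50.6 CPM), with overlapping ranges. The scarce Dendritic cells held 47.1, 73.5, 71.2 and 59.3 CPM. Its level in malignant cells, 7.56, 7.87, 8.43 and 7.63 CPM, lay below all others of these populations.

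Among the same populations the thioredoxin genes had another order, led by Osteoclasts. Txn1 stood at 1472 to 1768 CPM there, above the Highly proliferative M2 macrophages (952 to 1098 CPM), NK cells (891 to 988 CPM) and malignant cells (810 to 968 CPM), whose ranges overlapped in turn. M2 macrophages (413 to 611 CPM) and Microglia (381 to 473 CPM) were lowest. Txn2 was likewise highest in Osteoclasts, at 219 to 279 CPM, followed by malignant cells at 150 to 177 CPM with no overlap on either side, and lowest in Fibroblasts at 68.1 to 86.5 CPM. Txnrd1 was highest in Osteoclasts (121 to 222 CPM), M1 macrophages (87.3 to 162 CPM) and Highly proliferative M2 macrophages (112 to 151 CPM), which overlapped. M2 macrophages (48.2 to 85.0 CPM) held less Txnrd1 than Highly proliferative M2 macrophages in each mouse, and Microglia were lowest at 23.9 to 38.3 CPM. Scarce types lay outside this order: the cells named Unknown held 2248 CPM of Txn1, 340 CPM of Txn2 and 207 CPM of Txnrd1 in their 1 mouse, and Dendritic cells held 36.2 to 70.7 CPM of Txn2.

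**Figure D2:**
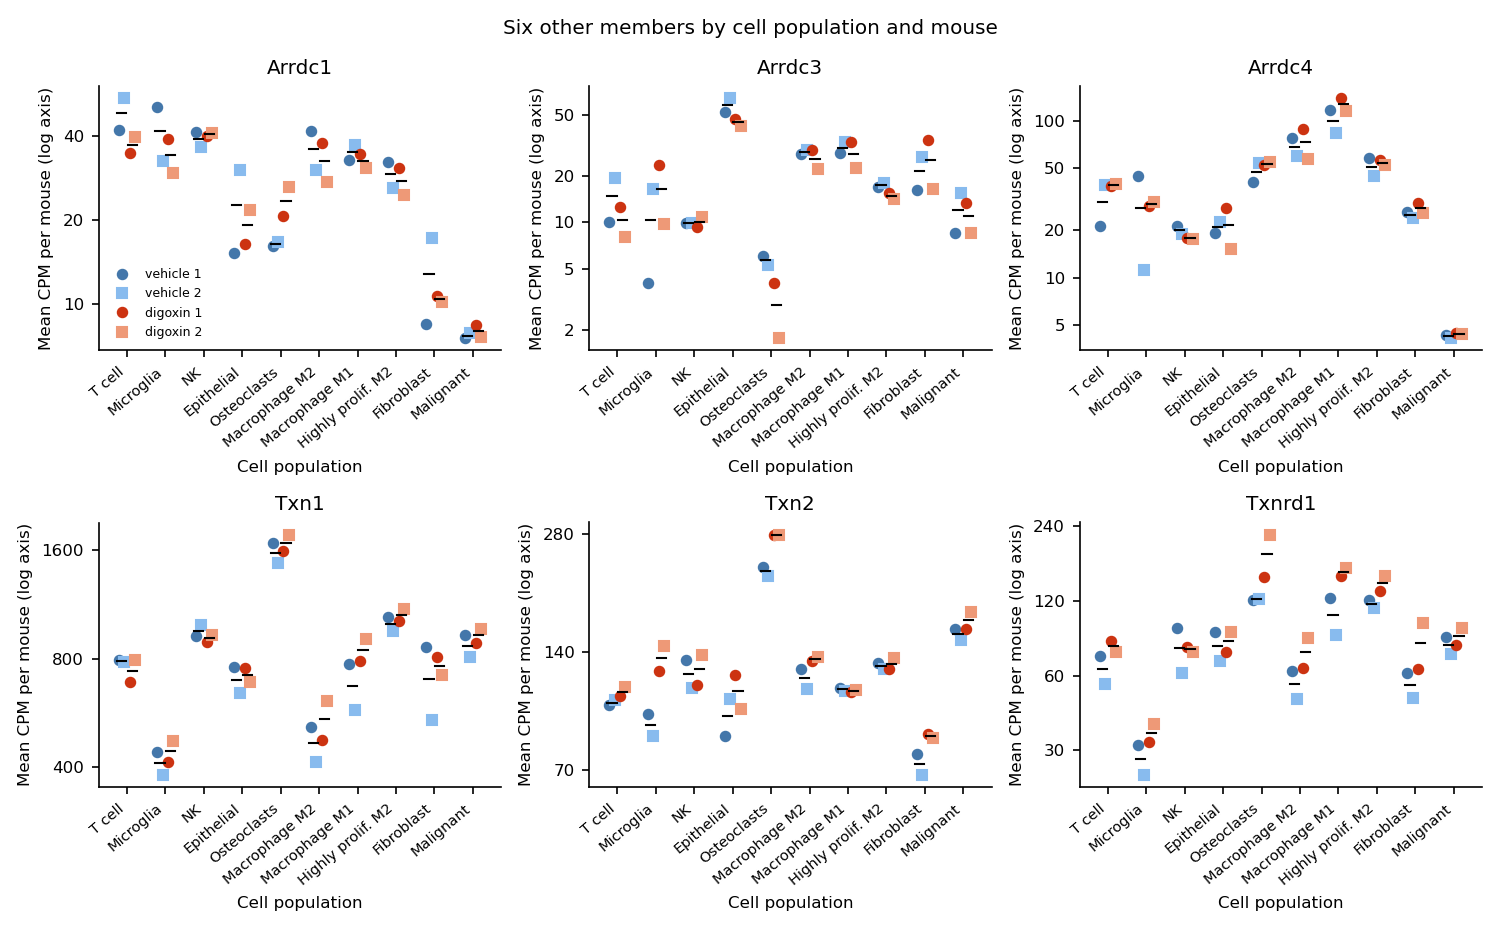
Level of the other members in each mouse and each population with at least 20 cells in every mouse, in mean CPM on log axes; circles are replicate 1 and squares replicate 2, blue for vehicle and red for digoxin, and black lines are group means of 2 mice. Arrdc4 runs from 4.12 CPM in malignant cells to 139 CPM in M1 macrophages, Arrdc3 peaks in the cells named Epithelial, and Txn1 and Txn2 peak in Osteoclasts, among the populations shown.

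The arrestin-domain genes and the thioredoxins lay on opposite sides between tumor and host. In all 4 mice the arrestin-domain genes were lower in malignant cells than in non-malignant cells: Txnip by 2.90-fold to 4.38-fold, Arrdc1 by 3.78-fold to 4.73-fold, Arrdc3 by 1.82-fold to 2.82-fold and Arrdc4 by 14.3-fold to 21.7-fold. In all 4 mice the thioredoxins were higher in malignant cells: the host level was 0.74 to 0.84 of the malignant level for Txn1 and 0.71 to 0.79 for Txn2. Txnrd1 was on either side of equality, at 1.10, 0.94, 1.35 and 1.30 times the malignant level. Single host types departed from this. Arrdc3 averaged 11.5 CPM in malignant cells, above NK cells (10.0 CPM) and Osteoclasts (4.30 CPM). Txn1 averaged 898 CPM in malignant cells, below Osteoclasts (1626 CPM), Highly proliferative M2 macrophages (1027 CPM) and NK cells (933 CPM). Txn2 averaged 162 CPM in malignant cells, below Osteoclasts (252 CPM). Both kinds of cell differ in depth and lineage, and these ratios carry no test.

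To ask whether digoxin changed the members elsewhere, each population with at least 20 cells in every mouse was tested with limma over all genes, with Benjamini-Hochberg adjustment. In the 11 populations other than Osteoclasts, 0 of 76 tests on members passed an adjusted p of 0.05, and edgeR and DESeq2 on recovered UMIs also called 0. These populations are nested: all non-malignant cells hold every host type, Osteoclasts included, and the Macrophages hold their 3 sub-clusters. An unadjusted p under 0.05 was reached in 6 of the 76, where the share over all genes was 2.28% to 7.73% per population. These were Txnrd1 in all non-malignant cells, in Macrophages and in 2 macrophage sub-clusters, Txn2 in Microglia, and Txnip in M1 macrophages. Over all genes, limma called 0% in malignant cells, non-malignant cells, Fibroblasts, Macrophages and their 3 sub-clusters, Microglia and T cells. It called 0.0765% in NK cells and 0.467% in Epithelial cells, none of them members. Whether the 4 tumors grew from a single cell line is not given in the sources used here, and the p-values measure the spread between these mice.

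Groups that do not overlap are common with 2 mice each, and the members have to be read against that background. They did not overlap for 2 of 7 members in malignant cells (29.3% of all genes), 3 of 7 in non-malignant cells (33% of all genes) and 3 of 7 in Macrophages (30.9%). The counts were 3 of 7 in M1 (39.3%), 2 of 7 in M2 (26.6%) and 2 of 7 in Highly proliferative M2 macrophages (30.1%). They were 4 of 7 in T cells (33.3%), 2 of 7 in NK cells (36%), 2 of 7 in Epithelial cells (34.1%), 2 of 7 in Fibroblasts (29.5%) and 3 of 6 in Microglia (32.9%). With 7 members at most, these counts are not read as a result about them.

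Txnrd1, the thioredoxin reductase, had the widest upward differences among these populations. In 8 of 11 populations tested the digoxin mice both lay above the vehicle mice. Over all genes, groups did not overlap for 26.6% to 39.3% per population, in either direction. For Txnrd1, 5 of the 8 are the nested non-malignant and macrophage sets. The log2 difference was above 0 in all 11, although it changed sign under other settings in NK cells and Epithelial cells (main values 0.01 and 0.06) and, without marked doublets, in Microglia. In M1 macrophages it was at 123, 87.3, 151 and 162 CPM, which is 0.59 higher with digoxin on the log2 scale (SE 0.164, limma adjusted p 0.507). In Macrophages as a whole it was at 99.1, 65.6, 113 and 127 CPM, which is 0.57 higher (SE 0.197, limma adjusted p 1.000). M2 macrophages stood at 62.7, 48.2, 64.1 and 85.0 CPM and Highly proliferative M2 macrophages at 121, 112, 132 and 151 CPM, with log2 differences of 0.42 and 0.28. In each of these sub-clusters vehicle replicate 2 was the lowest mouse. Without that mouse the log2 difference was 0.35 in M1 macrophages, 0.27 in Macrophages, 0.23 in M2 and 0.22 in Highly proliferative M2 macrophages. Without digoxin replicate 2 it was 0.22 in M2 and 0.18 in Highly proliferative M2 macrophages. Without vehicle replicate 1 it was 0.84 in M1 (limma adjusted p 0.0228) and 0.86 in Macrophages (limma adjusted p 0.0421), with the lone vehicle mouse assumed to vary like the digoxin mice. The same fits called 224 of 12642 genes in M1 and 132 of 14181 in Macrophages, where 0 were called with all 4 mice. Median mitochondrial UMIs also separated the groups in Macrophages, at 5.20%, 6.44%, 4.74% and 4.53% per cell, and in M1 macrophages, at 4.23%, 4.63%, 3.94% and 3.74%. Macrophages were made up of 1095, 712, 1307 and 1166 M1 cells and 948, 1511, 1136 and 1191 M2 cells beside the Highly proliferative M2 cells, and M2 cells held less Txnrd1 than M1 cells in each mouse. The part of either in the Macrophage value was not tested. Fibroblasts (61.4, 48.8, 63.5 and 98.1 CPM), T cells (72.3, 55.5, 82.5 and 74.7 CPM) and Microglia (31.4, 23.9, 32.4 and 38.3 CPM) had the same order of groups and did not pass. Vehicle replicate 2 was lowest there too, and without it the log2 differences were 0.36, 0.12 and 0.16. The Fibroblast difference, 0.52 with all mice, was 0.21 without digoxin replicate 2 and 0.83 without digoxin replicate 1. In malignant cells Txnrd1 overlapped at 86.1, 73.5, 80.0 and 93.5 CPM.

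The thioredoxins differed less. Txn2 lay higher in both digoxin mice in 7 of 11 populations, with log2 differences of 0.06 to 0.56. Over all genes, groups did not overlap for 26.6% to 39.3% per population, in either direction. The 7 include the nested non-malignant, Macrophage and M2 sets. In Macrophages vehicle replicate 1 (121.59 CPM) and digoxin replicate 1 (121.61 CPM) were nearly equal. The Macrophage log2 difference was 0.07, and 0.02 without vehicle replicate 2. The widest Txn2 difference was in Microglia, at 97.1, 85.4, 125 and 145 CPM (log2 difference 0.56, SE 0.241, limma adjusted p 0.980). Other markers separated the groups there as well: proliferation markers summed to 35.2, 27.4, 59.98 and 86.6 CPM and macrophage markers to 582, 372, 649 and 660 CPM, and their part in the Txn2 value was not tested. In malignant cells Txn2 was at 160.26, 150, 160.26 and 177 CPM, so that vehicle replicate 1 and digoxin replicate 1 were nearly equal. The log2 difference was 0.12, and 0.07 without vehicle replicate 2, 0.05 without digoxin replicate 2 and 0.19 without digoxin replicate 1. Txn1 separated the groups only in M1 macrophages, at 772, 574, 789 and 906 CPM (log2 difference 0.34, limma adjusted p 0.669), where vehicle replicate 2 was again lowest. Without that mouse it was 0.13.

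No population tested gave a Txnip difference past the threshold with all 4 mice. Txnip lay lower in both digoxin mice in M1 macrophages, at 86.5, 90.7, 75.0 and 70.1 CPM (log2 difference -0.28, SE 0.102, limma adjusted p 0.577). It was also lower in both in Microglia, at 171, 188, 130 and 169 CPM, and in Macrophages, at 89.87, 98.5, 89.49 and 65.3 CPM, where digoxin replicate 1 nearly met vehicle replicate 1. In Microglia digoxin replicate 2 nearly met vehicle replicate 1, and without digoxin replicate 1 the log2 difference fell from -0.28 to -0.09. In Macrophages it fell from -0.30 to -0.07 without digoxin replicate 2. With the other digoxin mouse left out, the values were -0.47 in Microglia and -0.52 in Macrophages. Txnip lay higher in both digoxin mice in Epithelial cells, at 141, 134, 163 and 174 CPM (log2 difference 0.29, limma adjusted p 0.879), the population in which mast cell markers were also higher with digoxin. With pooled CPM, TMM factors, edgeR or DESeq2 this difference was 0.16 to 0.19. The part of those cells in this value was not tested. In all non-malignant cells without the Osteoclasts the mice stood at 104, 107, 102 and 81.4 CPM (log2 difference -0.21, limma adjusted p 0.980). That value rested on digoxin replicate 2, without which it was -0.05, against -0.37 without digoxin replicate 1. In T cells the log2 difference was 0.05, and 0.11 to 0.15 under the same 4 settings. In NK cells (153, 137, 155 and 169 CPM) it was 0.16, but it was below 0 under those settings (-0.0623 to -0.0563). In Fibroblasts the groups overlapped. Without vehicle replicate 1 the Fibroblast difference was -1.40 (limma adjusted p 0.000978), and it then rested on the single vehicle mouse with 126 CPM, in a fit that called 462 of 9847 genes where 0 were called with all 4 mice.

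In the populations tested, the arrestin-domain relatives gave 4 separations of groups at an average of at least 5 CPM. Arrdc1 was lower with digoxin in T cells, at 42.0, 54.6, 34.7 and 39.5 CPM (log2 difference -0.36, limma adjusted p 0.979), and without vehicle replicate 2 the difference was -0.18. Proliferation markers in T cells summed to 736, 585, 440 and 546 CPM and neutrophil markers to 6.50, 18.1, 39.1 and 127 CPM. Their part in the T cell values of the members was not tested. Arrdc3 was lower in Epithelial cells (log2 difference -0.37, limma adjusted p 0.943, and -0.21 without vehicle replicate 2) and in Highly proliferative M2 macrophages, at 17.0, 18.0, 15.5 and 14.1 CPM. Mast cell markers were higher with digoxin in the Epithelial cells, and their part in the Arrdc3 value was not tested. Arrdc4 was lower in NK cells, at 21.3, 18.9, 17.9 and 17.6 CPM (log2 difference -0.16, limma adjusted p 0.942). That value was -0.08 without vehicle replicate 1, -0.25 without vehicle replicate 2 and -0.09 with pooled CPM. In Macrophages the groups overlapped in Arrdc4 at 91.9, 64.8, 109 and 80.8 CPM. In the scarce types, which were not tested, Arrdc1 was lower with digoxin in B cells (50.2, 21.2, 8.33 and 9.24 CPM) and Neutrophils (52.3, 46.6, 33.1 and 16.3 CPM), on 2 to 18 UMIs per mouse. Arrdc4 in B cells and Arrdc3 in Dendritic cells were lower too, on 1 to 3 and 0 to 8 UMIs per mouse.

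**Figure D3:**
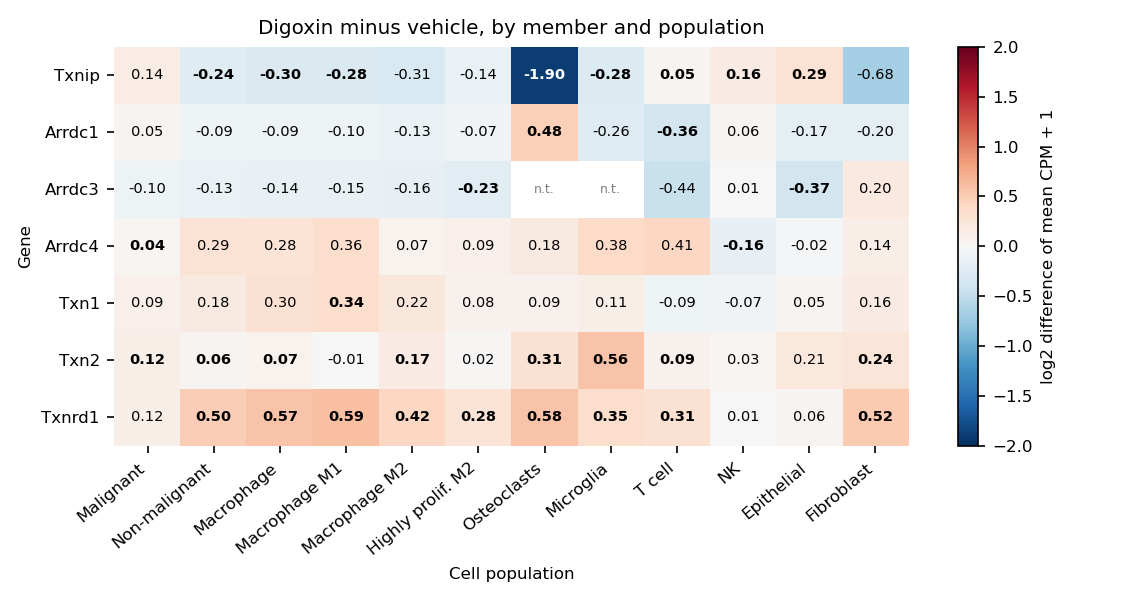
Digoxin minus vehicle difference in log2(mean CPM + 1) for each member (rows) and population (columns), red for higher and blue for lower with digoxin. Bold values mark groups of 2 mice that do not overlap, and n.t. marks Arrdc3 where it did not pass the filter on low counts; the Txnip value of -1.90 in Osteoclasts is the widest, and the Txnrd1 row runs from 0.01 in NK cells to 0.59 in M1 macrophages, with sign changes under other settings in NK, Epithelial and Microglia.

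Whether a member responded differently in tumor and host cells was tested on the difference within each mouse between malignant and non-malignant cells. Limma called 0 of 7 members and 0% of all genes, and edgeR and DESeq2 called 0 members. For Txnrd1 the malignant effect (0.12) was smaller than the non-malignant effect (0.50), a difference of -0.38 (SE 0.103, limma adjusted p 0.970, unadjusted 0.0113). Over all genes, 3.99% had an unadjusted p under 0.05 in this test. Without vehicle replicate 1 the Txnrd1 value was -0.49 with a limma adjusted p of 0.0445, in a fit that called 217 of 14849 genes, and with the Osteoclasts also left out it was -0.54 with a limma adjusted p of 0.0504. Without vehicle replicate 2 alone it was -0.26. For Txnip the non-malignant side was taken without the Osteoclasts, on which it was chosen. The malignant effect then exceeded the non-malignant effect by 0.35 on the log2 scale (SE 0.146, limma adjusted p 0.975, unadjusted 0.0527). It was 0.15 without vehicle replicate 1 and 0.56 without vehicle replicate 2, with adjusted p-values of 0.527 and 0.155 by limma.

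Within the malignant cells, Txnip and Arrdc3 were lower in cells with proliferation markers, and the 3 thioredoxin genes were higher. For this comparison, chosen after the data were seen, each malignant cell was thinned to 20000 UMIs and each macrophage to 8000 UMIs, which left out 171 to 458 malignant cells and 136 to 206 macrophages per mouse. Cells with at least 3 UMIs of the 5 proliferation markers were set against cells with 0. Txnip in malignant cells was at 32.6, 40.8, 47.6 and 31.6 CPM without proliferation UMIs and at 15.6, 20.7, 21.2 and 17.8 CPM with them, a ratio of 1.78 to 2.24. Arrdc3 went the same way, by 2.40 to 3.80. The thioredoxin genes went the other way in all 4 mice: the ratio was 0.51 to 0.57 for Txn1, 0.67 to 0.70 for Txn2 and 0.48 to 0.59 for Txnrd1. Arrdc1 and Arrdc4 lay on both sides of 1. In macrophages the ratio was 1.28 to 1.40 for Txnip, 1.62 to 1.84 for Arrdc3 and 1.63 to 2.20 for Arrdc4, and 0.65 to 0.86 for Txn1. It was 0.88 to 0.96 for Txn2, while Txnrd1 (0.70 to 1.07) and Arrdc1 (0.91 to 1.21) lay on both sides of 1. In macrophages this split follows the deposited sub-clusters in part, and the part of the sub-clusters was not tested.

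**Figure D4:**
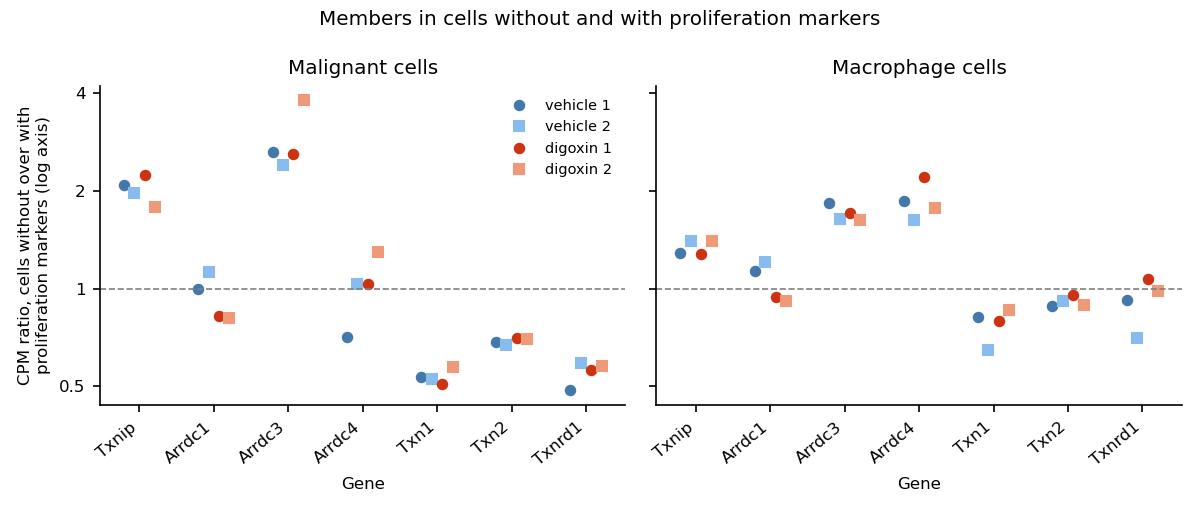
Ratio of CPM in cells without proliferation-marker UMIs over cells with at least 3, for each member and mouse, on a log axis; cells were thinned to one depth, circles are replicate 1 and squares replicate 2, blue for vehicle and red for digoxin. In malignant cells (left) Txnip and Arrdc3 lie above 1 (1.78 to 3.80) and Txn1, Txn2 and Txnrd1 lie below 1 (0.48 to 0.70) in all 4 mice.

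Partners of the members were taken from 5 gene lists. Genes past the threshold aside, the gene named per list was picked among those whose groups did not overlap. Its separation of groups is therefore no result. Over all genes, groups did not overlap for 29.3% in malignant cells, 30.9% in Macrophages and 37.4% in Osteoclasts. Of the thioredoxin partners (peroxiredoxins, methionine sulfoxide reductases and relatives), limma called 0 of 15 in malignant cells and 0 of 15 in Macrophages. Unadjusted p-values under 0.05 numbered 0 and 1 (3.41% and 4.04% over all genes), and edgeR and DESeq2 called 0. Their median log2 difference was 0.03 in both, beside -0.01 over all genes in each, and without vehicle replicate 2 it was -0.01 in malignant cells. Among them Srxn1, which repairs overoxidised peroxiredoxins, stood at 29.7, 17.1, 32.4 and 34.4 CPM in Macrophages (log2 difference 0.55, limma adjusted p 1.000), and without vehicle replicate 2 the difference was 0.16. In malignant cells Msrb1, a methionine sulfoxide reductase, had a log2 difference of -0.11, which was -0.07 without vehicle replicate 2 and -0.06 without digoxin replicate 2. In Osteoclasts Prdx4, a peroxiredoxin of the endoplasmic reticulum, was at 78.2, 66.2, 101 and 96.9 CPM, higher in both digoxin mice. Of the alpha-arrestin partners (ubiquitin ligases and ESCRT proteins), 0 of 9 tested were called in either population, and Tsg101 differed by -0.09 and -0.08 on the log2 scale in malignant cells and Macrophages. These were -0.03 and -0.04 without vehicle replicate 1, and -0.15 and -0.12 without vehicle replicate 2. In Osteoclasts Nedd4, a ubiquitin ligase, was at 34.3, 28.0, 23.5 and 27.6 CPM, lower in both digoxin mice.

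Of the glucose sensing and uptake list, 0 of 8 tested were called in malignant cells and 0 of 8 in Macrophages. Unadjusted p-values under 0.05 numbered 1 and 2 (3.41% and 4.04% over all genes), all upward. Hk2, which encodes a hexokinase, was at 76.5, 80.7, 89.7 and 89.5 CPM in malignant cells (log2 difference 0.19, limma adjusted p 1.000). Slc2a1, which encodes GLUT1, was at 67.0, 52.2, 94.2 and 76.2 CPM in Macrophages (log2 difference 0.51, limma adjusted p 1.000), and without vehicle replicate 2 the difference was 0.33. In Osteoclasts Mlx, the partner of MondoA, was at 23.7, 16.9, 37.1 and 27.9 CPM, on 22 to 63 UMIs per mouse. A pair of further genes is named there after their values were seen. Mlxip was at 31.5, 29.0, 26.4 and 28.2 CPM. Hk2 was at 9.70, 12.3, 24.8 and 32.9 CPM on 8 to 45 UMIs, higher in both digoxin mice. The Hk2 average lies just under the minimum of 20 CPM. Of the 6 genes of this list fitted in Osteoclasts, 3 had groups that did not overlap, while Max, Hk1 and Slc2a1 overlapped.

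Of the NRF2 list, 0 of 10 were called in malignant cells or Macrophages, with 1 unadjusted p under 0.05 in each (3.41% and 4.04% over all genes). The gene with the widest difference was Hmox1, the heme-degrading oxygenase, at 506, 267, 780 and 572 CPM in Macrophages (log2 difference 0.86, limma adjusted p 1.000). Without vehicle replicate 1 it was 1.32 (limma adjusted p 0.0393), and Srxn1 was 0.93 (limma adjusted p 0.0436). Those p-values set a lone vehicle mouse against the spread of the digoxin mice, in the fit that called 132 of 14181 genes. In each case vehicle replicate 2 was the lowest mouse, as for Txnrd1, and without it Hmox1 was 0.40. Hmox1 was also the gene named in the other 2 populations. It was at 54.5, 46.7, 60.37 and 60.03 CPM in malignant cells (log2 difference 0.25, limma adjusted p 1.000, and 0.14 without vehicle replicate 2), and at 34.8, 13.7, 87.1 and 38.0 CPM in Osteoclasts, higher in both digoxin mice. The median over the list was 0.20 in Macrophages, beside -0.01 over all genes, and 0.05 beside -0.03 without vehicle replicate 2. In malignant cells the median was 0.002, beside -0.006 over all genes.

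Of the inflammasome list, 0 of 6 were called in malignant cells and in Macrophages. Unadjusted p-values under 0.05 numbered 1 and 0 (3.41% and 4.04% over all genes). The median log2 difference over the list was 0.16 and 0.23, beside -0.01 over all genes in each. Without vehicle replicate 2 it was 0.04 and 0.11. In malignant cells Il1b, the interleukin cut by the inflammasome, was at 23.0, 17.0, 32.8 and 28.5 CPM (log2 difference 0.60, limma adjusted p 1.000). That difference was 0.28 to 0.31 with pooled CPM, TMM factors, edgeR or DESeq2, 0.40 without vehicle replicate 2, and 0.94 without marked doublets. Cells marked as doublets made up 8.50%, 7.37%, 5.49% and 5.56% of the malignant cells. Macrophage markers summed to 217 to 298 CPM in malignant cells. The part of either in the Il1b value was not tested. In Macrophages Nlrp3, the inflammasome sensor, was at 153, 117, 165 and 175 CPM (log2 difference 0.34, limma adjusted p 1.000, and 0.15 without vehicle replicate 2). In Osteoclasts Pycard, the inflammasome adaptor, was at 126, 143, 159 and 169 CPM, higher in both digoxin mice. In NK cells 1 of 6 passed, where limma called 0.0765% of all genes. Il1b was at 7.03, 10.3, 101 and 55.2 CPM and rose by 2.99 on the log2 scale with digoxin (SE 0.307, limma adjusted p 0.000544). That is a 9.01-fold higher level. The list median was 0.31 in NK cells, 0.32 in T cells, 0.54 in Microglia, 0.65 in Epithelial cells and 0.90 in Fibroblasts. These medians rest on 4 to 6 genes, and those over all genes were -0.04 to 0.02. NK cells express little Il1b as a rule. Macrophage markers in these cells summed to 247, 260, 251 and 470 CPM and neutrophil markers to 3.08, 0.489, 15.7 and 5.91 CPM, the latter higher in both digoxin mice. The part of these markers in the result was not tested. Without cells marked as doublets the log2 difference was 1.85 and did not pass (limma adjusted p 0.320), and DESeq2 gave 2.74 with an adjusted p of 0.930. Txnip in the same NK cells lay at 153, 137, 155 and 169 CPM.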

How the data were processed

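Malignant and non-malignant cells of 4 tumors (2 mice per group) were deposited as gene by cell tables with cell annotation. Processing named Cell Ranger 3.0.2, Seurat 3.0.2 and the build mm10, per the submitters' processing notes. File names speak of counts, but each value deposited is a natural log, ln(1 + x), where x is the UMIs of a gene per 10000 in its cell. UMIs were recovered with the count of UMIs per cell that the authors deposited: 100% of values above 0 were whole within 0.01, and totals matched in all 18963 and 12648 cells. Cell types and sub-clusters are the deposited names. The rule that separated malignant cells is not given in the sources used here. The vehicle library with the number 3 in its cell names is vehicle replicate 2 in the deposited annotation.

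For each mouse and population with at least 20 cells in every mouse, mean CPM per cell was fitted as log2(mean CPM + 1) with limma 3.58.1 (trended variance), after edgeR 4.0.16's filterByExpr on summed UMIs, with Benjamini-Hochberg adjustment at 0.05 over all genes kept. This scale understates changes of low genes. The code was tested on simulated data. Alternatives were other pseudocounts, no filter, pooled CPM with and without TMM factors, edgeR's quasi-likelihood test, DESeq2 1.42.0, no marked doublets, no cells over 20% mitochondrial UMIs, a replicate block, each mouse left out and, added after seeing the data, non-malignant cells without the Osteoclasts, with all mice and without each. Scrublet (scanpy 1.11.5) marked 1381 of 31611 cells (4.37%), which were kept. Member differences are described where the 4 mice average at least 5 CPM and the groups do not overlap, besides the difference between malignant and non-malignant cells and values that pass without 1 mouse. One gene per list is named: the widest difference among those with at least 20 CPM and groups that do not overlap, in malignant cells, Macrophages and Osteoclasts, besides genes past the threshold. The members and lists were chosen with earlier results of these data known.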

Additional observations from a re-analysis of the deposited data

Results flagged for a closer look

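For Txnip, both digoxin mice lay above both vehicle mice in the cells named Epithelial (log2 difference 0.29, and 0.16 by edgeR) and below both in Osteoclasts (-1.90), so the 2 differences stand 2.19 apart. For Arrdc1, both digoxin mice lay above both vehicle mice in Osteoclasts (0.48) and below both in T cells (-0.36, and -0.18 without vehicle replicate 2), 0.84 apart. Neither difference between populations was tested, and the Txnip pair includes the comparison on which the members were chosen.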

How the results depend on the processing

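Of 585 alternative values for 38 single log2 differences, 574 kept direction and side of the threshold, 5 reversed, 4 newly passed it (without vehicle replicate 1) and 2 no longer did (Il1b in NK cells). The member differences among them had limma adjusted p-values of at least 0.507 to begin with. A replicate block cannot move a log2 difference in this balanced design. The count of 574 therefore says little about stability. Txnip in NK cells was 0.16, but -0.0581 with pooled CPM, -0.0623 with TMM factors, -0.0563 by edgeR and -0.0606 by DESeq2. Txnrd1 in Microglia was 0.35, but -0.0349 without marked doublets. The cause was not tested. Of the 38 values, 24 moved by over 1.5 times without vehicle replicate 2, 14 without vehicle replicate 1, 13 without digoxin replicate 2, 5 without digoxin replicate 1, 3 without marked doublets, and 7 to 10 with pooled CPM, TMM factors, edgeR or DESeq2. Counts of members called stayed at 0 in malignant and in all non-malignant cells. Leaving out single mice gave 0 to 2 in the deposited types, 0 to 1 in the macrophage sub-clusters and 0 to 1 for the difference between malignant and non-malignant cells, each highest without vehicle replicate 1, a setting in which limma called 5 to 462 genes in every population tested other than Osteoclasts and 217 for the difference. Txnip in Osteoclasts was -1.90 and moved to -1.71 with pooled CPM; leaving out single mice gave -2.08 to -1.72. With a replicate block, 0 members were called in each set and Txnrd1 in M1 macrophages had an adjusted p of 0.564 (limma); the same numbers on mice of both groups are only numbers, with a correlation of deviations of -0.36 in malignant cells. A crossed replicate block, chosen after seeing the data, also called 0 members, as did non-malignant cells without the Osteoclasts. Over all genes, DESeq2 called 45 in malignant cells and 20 in Macrophages where limma called 0, and in Epithelial cells edgeR called 0 where limma called 48. With 28 to 152 Osteoclasts per mouse, low genes such as Arrdc3 were beyond the depth.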
